A study of Mus musculus with 12 samples.

Results

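The genes described here are 35 markers of cells in the developing cortex that are not of neural origin: 13 of blood vessel endothelium, 4 of mural cells, 10 of microglia and 8 of the meninges. They are 35 of the 21887 protein-coding genes on the main chromosomes, and they were chosen by name as classical markers of these cells. For each one, peaks of acetylation of histone H3 at lysine 27 (H3K27ac), a mark of active promoters and enhancers, were read in a window that runs from 20 kb before the gene body to 20 kb after it, on mouse build mm10. The libraries came from whole embryonic cortex at E15.5, precipitated with anti-H3K27ac (abcam, Cat#ab4729) after digestion of native chromatin. The WT group of 3 libraries was Prdm16 flox/flox, and the cKO group of 3 libraries was Emx1Ires-Cre; Prdm16flox/flox. Both groups therefore carry the floxed Prdm16 alleles, and the Cre transgene is named in the cKO genotype alone. Prdm16 encodes a chromatin regulator of the PR domain family expressed in cortical progenitors. Emx1-driven Cre acts in the progenitors of the dorsal forebrain and in the neurons and glia that descend from them, a lineage distinct from those of the cells described here. The labels do not say whether a library came from 1 embryo or from pooled embryos, nor that replicates were separate animals, so the p-values below measure the spread between these libraries, which may be technical.

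Endothelial cells line the vessels that invade the cortex from a plexus on its surface, and they need the tight junction, transport and signalling proteins of the blood-brain barrier. Mural cells (pericytes and smooth muscle) wrap these vessels, microglia are macrophages that enter the brain from the yolk sac, and the meninges are layers of fibroblasts over the cortical surface. All are a minority in a whole cortex, so that a gene acetylated in them alone gives a small part of the chromatin that a peak caller sees. In tissue of this kind, fewer cells of a type and less acetylation per cell cannot be told apart.

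The 6 lists held 48168 to 75563 peaks covering 53.87 to 92.07 Mb, and the WT libraries spanned the whole of both ranges. Read depth was not used here, so no floor in molecules can be given, and a window without a peak is one in which no enrichment was listed. The library identifiers put replicates 1 and 2 of each genotype under one identifier and replicate 3 of each under another, called batches A and B. The WT library of batch B had the shortest list and the fewest member windows with a peak, 24 of 35, against 25 to 31 in the other libraries. Of 20 genes of cortical progenitors and neurons, 19 had a peak within 1 kb of their start site (or of either gene end where the start was not in the promoter table) in all 6 libraries, as did 1 of 20 genes of tissues outside the brain.

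Few of the markers carried a peak at their start in every library, but more than that had a peak somewhere in their window. The start site was known for 22 members, and either gene end was taken for the other 13, so that a peak there may be at the far end of the gene. By this rule a peak within 1 kb was listed in all 6 libraries for 8 of the 35 members (22.9%), against 58% of all protein-coding genes. Among members with a known start it was 3 of 22 (13.6%), against 58.4% of all genes with one. Those 3 were the endothelial Slc2a1, the mural Abcc9 and the microglial Irf8. At a gene end of unknown direction the peak was that of the mural Pdgfrb, the microglial Tmem119 and Spi1, and the meningeal Col1a1 and Lum. Another 11 members had such a peak in 1 to 5 libraries, and 16 had none. Within the gene body, 15 members (42.9%) had a peak in all 6 libraries, against 63.4% of all genes. In the whole window the count was 19 members (54.3%), against 74.3% of all genes and 55.0% of the genes of tissues outside the brain. No peak anywhere in the window was listed in any library for 3 genes: the endothelial receptor gene Tek, the microglial gene Fcrls and the meningeal gene Twist1. The remaining 13 had window peaks in 1 to 5 libraries.

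**Figure D1:**
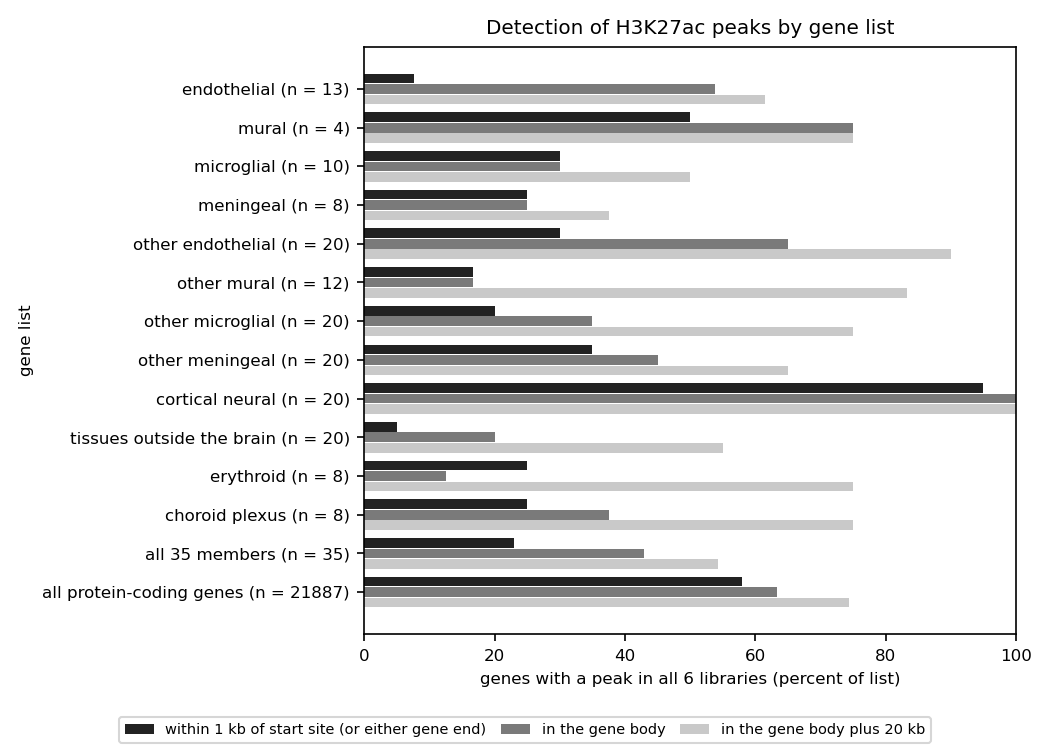
Bars give the percent of genes in each list with a peak in all 6 libraries: within 1 kb of the start site (of either gene end where the start is unknown), in the gene body, and in the window with 20 kb flanks. Detection at the start or end is 22.9% for all 35 members, 19 of 20 for the cortical neural list and 58% for all protein-coding genes.

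The share of the window under peaks was also small. Its median over the 35 members was 1.73% (mean of 6 libraries for each gene), against 3.58% over all protein-coding genes, 28.47% over the cortical neural list and 0.85% over the list from tissues outside the brain. Notch4 (15.48%), Aif1 (13.61%) and Col1a1 (9.66%) had the largest shares. For the first 2 of these, most of the covered bases lay in or within 2 kb of other protein-coding genes.

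**Figure D2:**
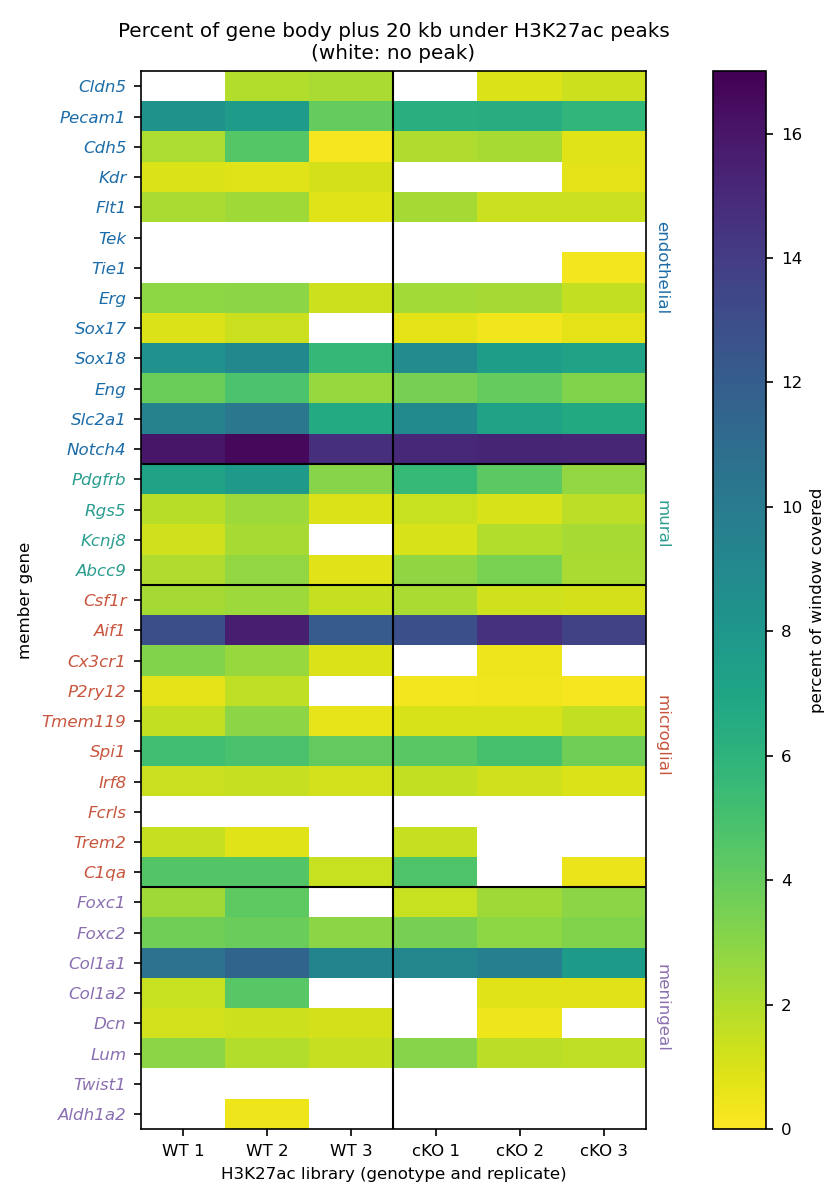
Each cell is the percent of a member's window (gene body with 20 kb flanks) covered by peaks in 1 library, with members in rows by class and the 3 WT and 3 cKO libraries in columns. Notch4 and Aif1 are the most covered rows, and Tek, Fcrls and Twist1 are at 0 in all 6 columns.

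Because a window can reach into the promoters of neighbours, covered bases outside the member's gene body that lay in or within 2 kb of another protein-coding gene were set apart from the rest, called the member's own part. The neighbours' part held 91.8% of the covered bases of Aif1 (Prrc2a, Lst1 and Ltb), 90.3% of Trem2 and 87.4% of Csf1r (Hmgxb3). It held all of those of Foxc2, whose single region lies in Mthfsd, 69.2% of Notch4, 67.9% of Eng and 52.6% of Spi1. Cldn5 lies beside Cdc45, which took 51.5%. In their own part, 17 members had a peak in all 6 libraries, 14 in some and 4 in none. When bases of the gene body near other genes were also left out, a split chosen after seeing the data, the counts were 17, 13 and 5. P2ry12, whose peaks all lie in or near the overlapping gene Med12l, then had none, and the share near other genes was 73.7% for Notch4 and 14.9% for Pdgfrb. Aif1 and Csf1r are thus microglial markers in whose windows the acetylation was chiefly next to other genes.

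**Figure D3:**
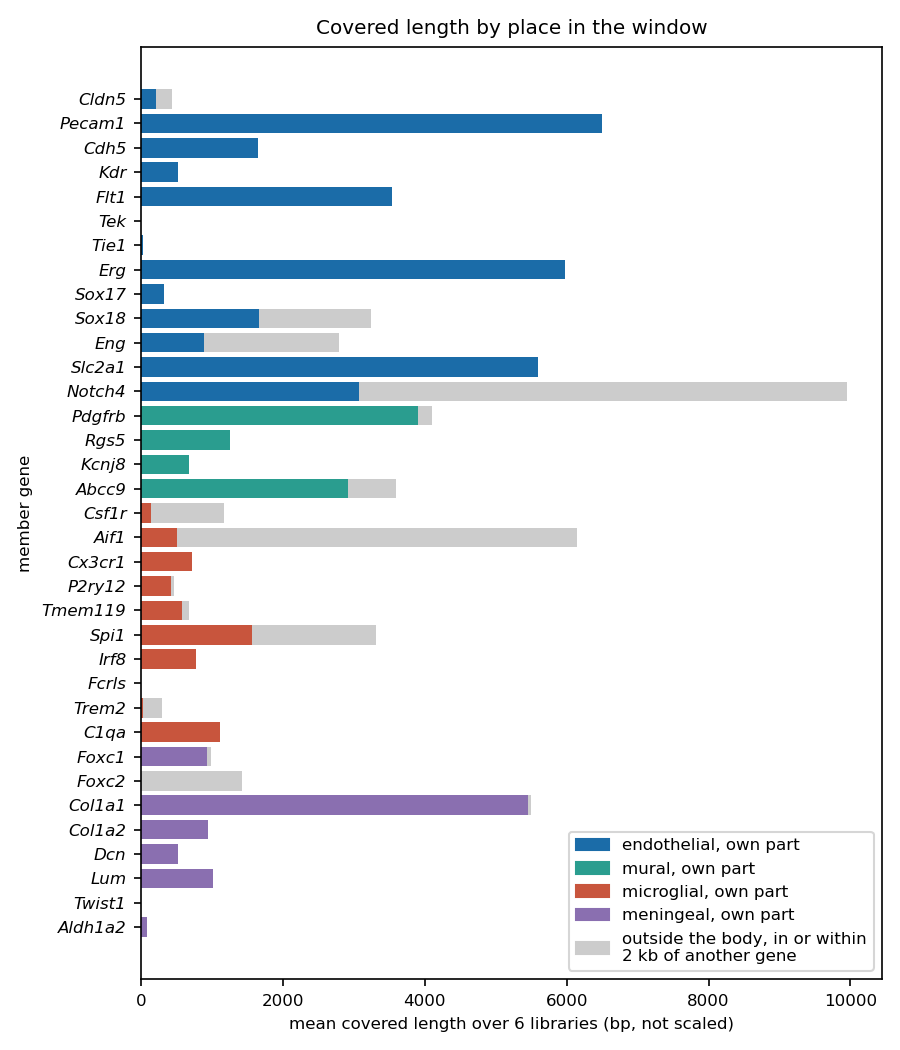
Bars give the mean covered length over the 6 libraries in each member's window, in bp before scaling, with grey parts for bases outside the member's gene body and in or within 2 kb of another protein-coding gene, and coloured parts for the rest. Foxc2 is grey throughout, and Pecam1, Erg and Slc2a1 have no grey part.

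Among the endothelial markers, Slc2a1 had the clearest start-site peak. It encodes GLUT1, the glucose transporter of the blood-brain barrier, and glycolytic cells of other types use it too. Its start-site region (chromosome 4, 119108166 to 119110713) had a -log10 q, as given by the authors' peak caller, of 24.69, 23.29 and 18.21 in WT and 25.14, 26.99 and 20.32 in cKO. The peak stood at a median within-list percentile of 88.0, so that it was stronger than most peaks of its own library. A -log10 q also depends on each library's depth, so such values describe peaks and are not tested between libraries. Another 5 regions in this window were present in all 6 libraries, and no other gene lay within 2 kb of any peak there.

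Pecam1, which encodes the junctional adhesion molecule CD31, had no peak within 1 kb of either gene end and 4 regions inside the gene in all 6 libraries. The longest of these (chromosome 11, 106657604 to 106661527) had -log10 q of 7.43, 15.27 and 12.57 in WT and 10.54, 11.67 and 10.78 in cKO. Cdh5, the gene of VE-cadherin, also lacked a peak at its ends, with 1 region inside the gene in all 6 libraries (chromosome 8, 104126898 to 104128160). The receptor gene Flt1 had 2 such regions inside the gene, 98024 and 53546 bp from its start site, and a start-site peak in 2 libraries. For these 3 genes the mark was thus listed inside the gene more often than at the start.

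Erg encodes an ETS family transcription factor of endothelium. Its strongest region lay beyond the gene's far end (chromosome 16, 95340333 to 95342162), 117186 bp from the nearest listed start site and 40073 bp from the nearest other gene, Kcnj15. Its -log10 q was 28.10, 31.30 and 22.74 in WT and 24.56, 23.19 and 26.19 in cKO. A second region outside the gene (95596574 to 95598467), 9981 bp from the start site, was also present in all 6 libraries, and the start site itself had a weaker peak in 5.

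The receptor gene Kdr had a single region, at its start (chromosome 5, 75977800 to 75978745), covering 831, 699 and 946 bp in WT and 0, 0 and 608 bp in cKO. The tight junction gene Cldn5 was covered in 4 libraries, with 0, 816 and 901 bp in WT and 0, 380 and 529 bp in cKO. Both were thus seen in some libraries of each genotype. Sox17, the gene of an arterial transcription factor, had a peak within 1 kb of a gene end in 5 libraries. The receptor gene Tie1 had 1 peak of 175 bp in its window, in cKO replicate 3, and Tek, the receptor gene related to it, had none. Sox18 and Eng had window peaks in all 6 libraries, with 48.9% and 67.9% of the covered bases near other genes.

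All 4 mural markers were seen in at least 5 libraries. Pdgfrb, on chromosome 18, encodes the receptor that recruits pericytes to vessels. It had a peak at a gene end in every library, with -log10 q of 7.43, 8.26 and 8.70 in WT and 5.72, 4.57 and 10.40 in cKO, and 3 further regions inside the gene in all 6. The region at the gene end lies 104 bp from the nearest other gene, Gm52351. Abcc9 and Kcnj8 are neighbours on chromosome 6 that encode the SUR2 and Kir6.1 subunits of the potassium channel of pericytes. Abcc9 had 3 regions in all 6 libraries: its start site (142701935 to 142702761), 1 inside the gene (142682547 to 142683592), and 1 upstream (142716779 to 142718646), 14505 bp from the start and 38040 bp from the nearest other gene, Cmas. The start-site region of Kcnj8 (142571056 to 142572159) was present in 5 libraries and lies in the Abcc9 window as well, so these 2 members share a peak. Rgs5, a regulator of G protein signalling, had window peaks in all 6 libraries and a start-site peak in 3.

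Among the microglial markers, Irf8 had a peak at its start in all 6 libraries, and Spi1 and Tmem119 had one at a gene end. Irf8 and Spi1 encode factors needed to make microglia. Irf8 had a single region, at its start (chromosome 8, 120735809 to 120736788), covering 806, 905 and 683 bp in WT and 923, 741 and 591 bp in cKO. The 6 values lay between 591 and 923 bp in overlapping groups, and the nearest other gene was 61600 bp away. Spi1 (PU.1) had a peak within 1 kb of a gene end in all 6 libraries. It also had a region in its flank (chromosome 2, 91078142 to 91079215) that was 7701 bp from the nearest other gene. The microglial membrane protein gene Tmem119 also had a peak at a gene end in all 6 libraries (chromosome 5, 113799814 to 113800739). The purine receptor gene P2ry12 had one in 5, with -log10 q of 1.88 to 3.40, inside the overlapping gene Med12l. The fractalkine receptor gene Cx3cr1 and the complement gene C1qa had no peak at the start or at either end, with window peaks in 4 and 5 libraries. Csf1r and Aif1 (IBA1) had window peaks in all 6 libraries, chiefly beside other genes as described above. Trem2 had window peaks in 3 libraries.

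Col1a1 was the meningeal marker with the most acetylation. It encodes a chain of type I collagen, made by fibroblasts in many tissues and by perivascular cells. A region at 1 end of the gene (chromosome 11, 94951934 to 94953000) had -log10 q of 8.13, 13.57 and 9.02 in WT and 9.87, 9.98 and 9.21 in cKO. A stronger one lay beyond that end (94954429 to 94956988), with -log10 q of 12.68 to 19.39. Col1a2, which encodes the other chain, had no region in all 6 libraries, and its window was covered over 1102, 3347 and 0 bp in WT and 0, 606 and 602 bp in cKO. The 2 collagen genes thus differed in how regularly they were seen. Lum, the gene of the proteoglycan lumican, had a narrow peak at a gene end and a flanking region (chromosome 10, 97582204 to 97583385) in all 6 libraries. The forkhead gene Foxc1 had window peaks in 5 libraries and none at its start, and Foxc2 had none in its own part. The retinoic acid synthesis gene Aldh1a2 had 1 peak of 502 bp, in WT replicate 2. Twist1, the gene of a mesenchymal transcription factor, had none.

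Promoter sequence was available from RefSeq (GRCm38.p6) for 22 of the 35 members, with 25 start sites, so that sequence could be set beside the start-site peaks. The 250 bases before the start are shown first for the members that had a start-site peak in all 6 libraries and an entry in the table, with CG dinucleotides in capitals:
Slc2a1, chr4:119108495-119108744, plus strand: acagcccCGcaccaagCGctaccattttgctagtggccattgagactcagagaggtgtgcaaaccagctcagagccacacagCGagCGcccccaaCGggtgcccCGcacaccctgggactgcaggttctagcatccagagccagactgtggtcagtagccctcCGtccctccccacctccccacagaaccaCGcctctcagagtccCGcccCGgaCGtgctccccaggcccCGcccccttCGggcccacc
Irf8, chr8:120736108-120736357, plus strand: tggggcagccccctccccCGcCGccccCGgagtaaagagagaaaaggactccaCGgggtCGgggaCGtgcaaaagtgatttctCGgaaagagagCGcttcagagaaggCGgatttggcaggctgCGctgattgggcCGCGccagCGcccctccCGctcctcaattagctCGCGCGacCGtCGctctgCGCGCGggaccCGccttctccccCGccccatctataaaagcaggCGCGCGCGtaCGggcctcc
Abcc9, chr6:142702275-142702524, minus strand: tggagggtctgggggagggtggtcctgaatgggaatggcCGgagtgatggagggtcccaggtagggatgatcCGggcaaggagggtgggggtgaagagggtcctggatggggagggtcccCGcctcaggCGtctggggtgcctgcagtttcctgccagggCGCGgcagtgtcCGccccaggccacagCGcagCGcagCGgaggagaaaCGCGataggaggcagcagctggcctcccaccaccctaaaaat
These hold 13, 29 and 12 CG dinucleotides. The next 3 are the members with no peak in any library anywhere in their window, shown in the same way for contrast and chosen after their values were seen:
Tek, chr4:94739039-94739288, plus strand: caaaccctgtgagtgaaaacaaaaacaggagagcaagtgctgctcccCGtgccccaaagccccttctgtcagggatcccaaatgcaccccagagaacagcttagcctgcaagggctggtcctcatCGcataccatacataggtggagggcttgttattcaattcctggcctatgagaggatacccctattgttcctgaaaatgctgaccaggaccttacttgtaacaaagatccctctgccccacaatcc
Fcrls, chr3:87263525-87263774, minus strand: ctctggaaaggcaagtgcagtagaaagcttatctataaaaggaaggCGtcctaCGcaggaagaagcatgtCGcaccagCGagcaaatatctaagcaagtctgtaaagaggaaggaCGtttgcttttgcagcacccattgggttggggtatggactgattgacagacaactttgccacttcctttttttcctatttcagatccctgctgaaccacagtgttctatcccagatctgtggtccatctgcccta
Twist1, chr12:33957421-33957670, plus strand: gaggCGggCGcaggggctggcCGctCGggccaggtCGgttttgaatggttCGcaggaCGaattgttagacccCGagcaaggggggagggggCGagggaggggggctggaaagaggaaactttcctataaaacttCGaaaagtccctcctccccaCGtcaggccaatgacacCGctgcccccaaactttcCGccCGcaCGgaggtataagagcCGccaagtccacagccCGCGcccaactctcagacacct
They hold 2, 5 and 18, so Tek and Fcrls are poor in CG and Twist1 is not.

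Across all 21263 promoter entries, each counted over 250 bases before the start and 50 after, the median number of CG dinucleotides was 22 where all 6 libraries had a start-site peak, 9 where 1 to 5 had one and 3 where none did. The members ran in the same order, with a median of 18 for 3 entries, 12.5 for 8 and 5.5 for 14. Aldh1a2 (50), Foxc1 (32) and Twist1 (27) had CG-rich promoters and no start-site peak in any library. Conversely, P2ry12 had 4 CG dinucleotides and a start-site peak in 5 libraries. Motifs were searched on both strands of these entries, without regard to surrounding bases. The ETS core GGAAGT was present in 6 of the 25 member entries (24.0%), those of Eng, Flt1, Kdr, Tie1, Fcrls and P2ry12, and in 24.8% of all entries. The PU.1 motif GAGGAAGT, which contains the ETS core, was present in 1 (Eng, 4.0%) and in 3.13% of all. The forkhead motif TGTTTAC was present in none of the member entries and in 3.01% of all.

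WT and cKO cortex were compared by the covered length of each window, scaled to the same total over all gene windows in every library. The comparison asks whether the markers of cells outside the Cre lineage differed in the cKO cortex. Of the 35 members, 18 had the mean of 1000 covered bp needed to enter the fit over 15359 genes and 17 did not. None of the 18 passed an adjusted p of 0.05 (limma with batch as a covariate, Benjamini-Hochberg over all genes tested), where 0.28% of all genes tested did, 0.124% longer and 0.156% shorter in cKO. At an unadjusted p below 0.05 in that fit, 1 member was longer (Abcc9) and 1 shorter (Pdgfrb), where 4.71% of all genes were longer and 5.44% shorter. The median log2 difference (cKO minus WT, of scaled bp plus 500) was -0.00 over the 18 members, with 9 above 0 and 9 below. It was 0.05 for 8 endothelial members, -0.10 for 3 mural, -0.17 for 4 microglial and -0.03 for 3 meningeal, and 0.03 over all genes tested. These are values of whole windows, neighbours' part included. That part held all covered bases of Foxc2, whose value is the meningeal median. It held 91.8% of those of Aif1, 87.4% of Csf1r and 52.6% of Spi1 among the microglial members. Among the endothelial members it held 69.2% of Notch4 and 67.9% of Eng.

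**Figure D4:**
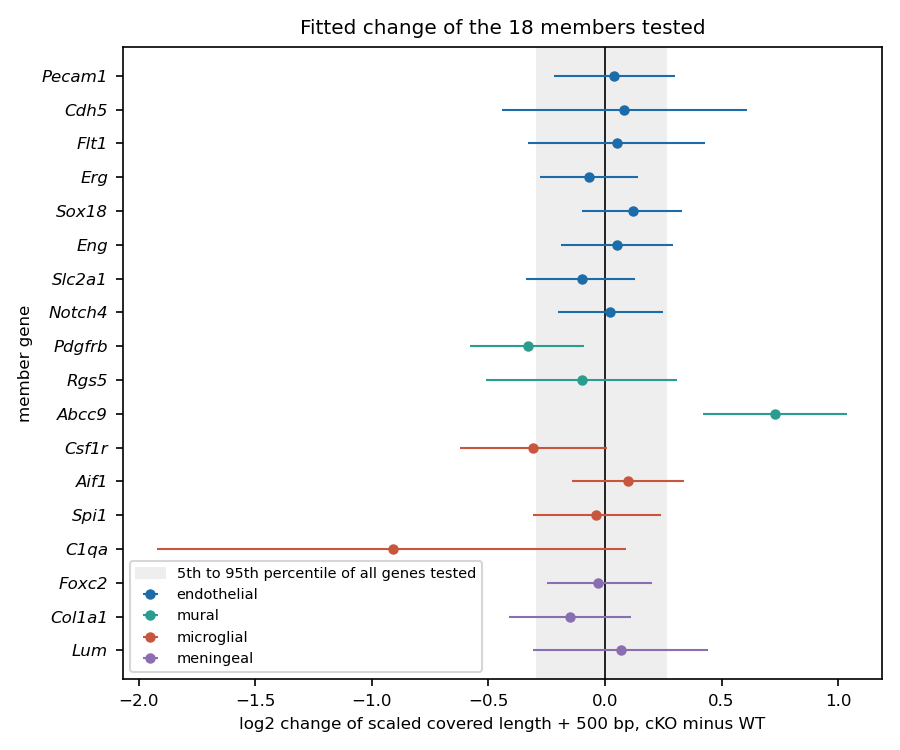
Points are log2 differences in scaled covered length (cKO minus WT) of the 18 members in the fit, with 95% confidence intervals from limma, and the grey band spans the 5th to the 95th percentile of all 15359 genes tested, -0.29 to 0.26. Abcc9 lies to the right of the band and C1qa, Pdgfrb and Csf1r to the left, and the intervals of C1qa and Csf1r cross 0.

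Among the 18 members in the fit, the mural gene Abcc9 had the log2 difference farthest above 0. Its scaled covered length was 2764, 3462 and 1549 bp in WT (2592 ± 968, SD, n = 3) and 4357, 5336 and 3755 bp in cKO (4483 ± 798, SD, n = 3). All cKO libraries were above all WT libraries in this scaled total. The start-site region of Kcnj8 held 18.8% of the covered bases. Without it, before scaling, Abcc9 covered 2528, 3188 and 1192 bp in WT and 3905, 4373 and 2304 bp in cKO. Lists were also cut to equal length, each to its top 48168 peaks by -log10 p. The window then covered 3104, 3060 and 1192 bp in WT and 3636, 5016 and 2559 bp in cKO. The groups overlapped in both, and in the whole window before scaling. The log2 difference was 0.73 ± 0.14 (SE), with a 95% interval of 0.42 to 1.04 and an adjusted p of 0.0767 (limma), short of the threshold. Over the other ways of processing, the adjusted p ran from 0.0279 to 0.806, and the log2 difference from 0.43 in gene bodies alone to 0.85. The adjusted p passed the threshold under 4 of them: 0.0467 without cKO replicate 1, 0.043 with the replicate number as a block, 0.0391 with a pseudocount of 2000 bp, and 0.0279 when lists were scaled to the total of all peaks, an alternative chosen after seeing the data. The difference was 0.57 in batch A and 1.05 in batch B, where 1 library stood on each side. Before scaling, the upstream region of Abcc9 covered 702, 400 and 263 bp in WT and 1217, 1638 and 580 bp in cKO. The covered lengths of that region overlapped, since WT replicate 1 exceeded cKO replicate 3. Its -log10 q was 6.75, 9.96 and 10.01 in WT and 14.27, 14.89 and 17.32 in cKO. At the start-site region the covered lengths overlapped, with 378, 702 and 178 bp in WT and 278, 579 and 268 bp in cKO.

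Pdgfrb, a marker of the same cells, had a difference of the opposite sign that did not pass the threshold either. Its scaled covered length was 5145, 5095 and 3226 bp in WT (4489 ± 1094, SD, n = 3) and 4455, 3475 and 2486 bp in cKO (3472 ± 985, SD, n = 3). The groups overlapped, and in each batch the cKO libraries were below the WT libraries, with differences of -0.34 in batch A and -0.32 in batch B. The log2 difference was -0.33 ± 0.11 (SE), with an adjusted p of 0.322 (limma), and it ran from -0.84 to -0.24 over the alternatives. Rgs5 differed by -0.10 ± 0.18 (SE). The 3 mural members in the fit thus had differences of both signs, and none passed the threshold.

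The endothelial markers with the most acetylation of their own overlapped between the genotypes. Pecam1 covered 7460, 6319 and 5318 scaled bp in WT (6366 ± 1072, SD, n = 3) and 6392, 6579 and 6566 in cKO (6512 ± 105, SD, n = 3), so the cKO values lay inside the WT range. Slc2a1 covered 5747, 5757 and 5906 bp in WT (5803 ± 89, SD, n = 3) and 6043, 4998 and 5111 bp in cKO (5384 ± 573, SD, n = 3). Its log2 difference was -0.10 ± 0.11 (SE), with a 95% interval of -0.34 to 0.13. Erg covered 6946, 6539 and 4581 bp in WT and 6199, 6267 and 4589 bp in cKO, and in both genotypes the library of batch B was the lowest. Its log2 difference was -0.07 ± 0.09 (SE), with a 95% interval of -0.28 to 0.14 in the limma fit. Kdr, below the filter, covered 740, 573 and 1230 scaled bp in WT and 0, 0 and 682 in cKO, and the groups overlapped in that 1 cKO library. Cdh5 ranged from 256 to 3065 scaled bp within WT alone.

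Among the 18 members in the fit, the log2 difference farthest below 0 was that of C1qa, which encodes a chain of complement C1q. Its scaled covered length was 1741, 1589 and 802 bp in WT and 1991, 0 and 233 bp in cKO, and the cKO values spanned the WT range. The log2 difference was -0.91 ± 0.45 (SE), adjusted p 0.549 (limma), and -0.24 without cKO replicate 2, which had no peak in the window. Csf1r, where most covered bases lay in Hmgxb3, differed by -0.31 ± 0.14 (SE), adjusted p 0.524 in the same limma fit. Aif1, with 91.8% of its covered bases in the neighbours' part, differed by 0.10 ± 0.11 (SE). Among the microglial members with a peak at the start or a gene end in all 6 libraries, Irf8 covered 718, 742 and 888 scaled bp in WT and 917, 749 and 663 in cKO. Tmem119 covered 646, 1118 and 364 in WT and 481, 472 and 822 in cKO. Spi1 covered 3375, 2945 and 3880 in WT and 3194, 3672 and 3018 in cKO. The groups overlapped for all 3.

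In all, 4 of the 35 members had scaled covered lengths that did not overlap between the genotypes. Abcc9 and Sox18 were higher in all cKO libraries, where 5.17% of all protein-coding genes were, and Cx3cr1 and Dcn were lower, where 4.52% were. For Sox18 the values were 3118, 3094 and 3078 bp in WT and 3648, 3176 and 3377 bp in cKO, and its log2 difference of 0.12 ± 0.10 (SE) took the opposite sign, -0.09, among peaks with -log10 q of at least 5. Cx3cr1, a receptor gene of microglia, covered 1721, 1267 and 697 scaled bp in WT (1228 ± 513, SD, n = 3) and 0, 266 and 0 in cKO (89 ± 153, SD, n = 3). Its main region lies inside the gene (chromosome 9, 120054728 to 120055955), with -log10 q of 4.57, 4.01 and 2.56 in WT and 2.28 in the 1 cKO library that had it. These are weak peaks, and none of them reached a -log10 q of 5. To give lists of equal length, every list was cut to the 48168 peaks with the highest -log10 p. This window then covered 1228, 1127 and 536 bp in WT and 0 in all 3 cKO libraries.

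Dcn, the gene of the proteoglycan decorin, covered 816, 846 and 1102 scaled bp in WT (922 ± 157, SD, n = 3) and 0, 336 and 0 in cKO (112 ± 194, SD, n = 3). Cx3cr1 and Dcn were below the length filter of the fit. In lists of equal length Dcn covered 194, 0 and 848 bp in WT and 0, 332 and 0 bp in cKO, and the groups overlapped. Without the length filter, limma gave Cx3cr1 a log2 difference of -1.54 ± 0.19 (SE), adjusted p 0.0741, and Dcn one of -1.26 ± 0.22 (SE), adjusted p 0.129, with 0.0345% of all genes past the threshold. Lum, the neighbour of Dcn and also a proteoglycan gene, differed by 0.07 ± 0.17 (SE), and Col1a1 by -0.15 ± 0.12 (SE). Foxc2, whose covered bases all lay in the neighbours' part, differed by -0.03 ± 0.10 (SE), adjusted p 0.957 (limma). Foxc1 covered 959, 1509 and 0 scaled bp in WT and 619, 1092 and 1456 in cKO, with the groups overlapping. The meningeal members thus had differences of both signs.

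**Figure D5:**
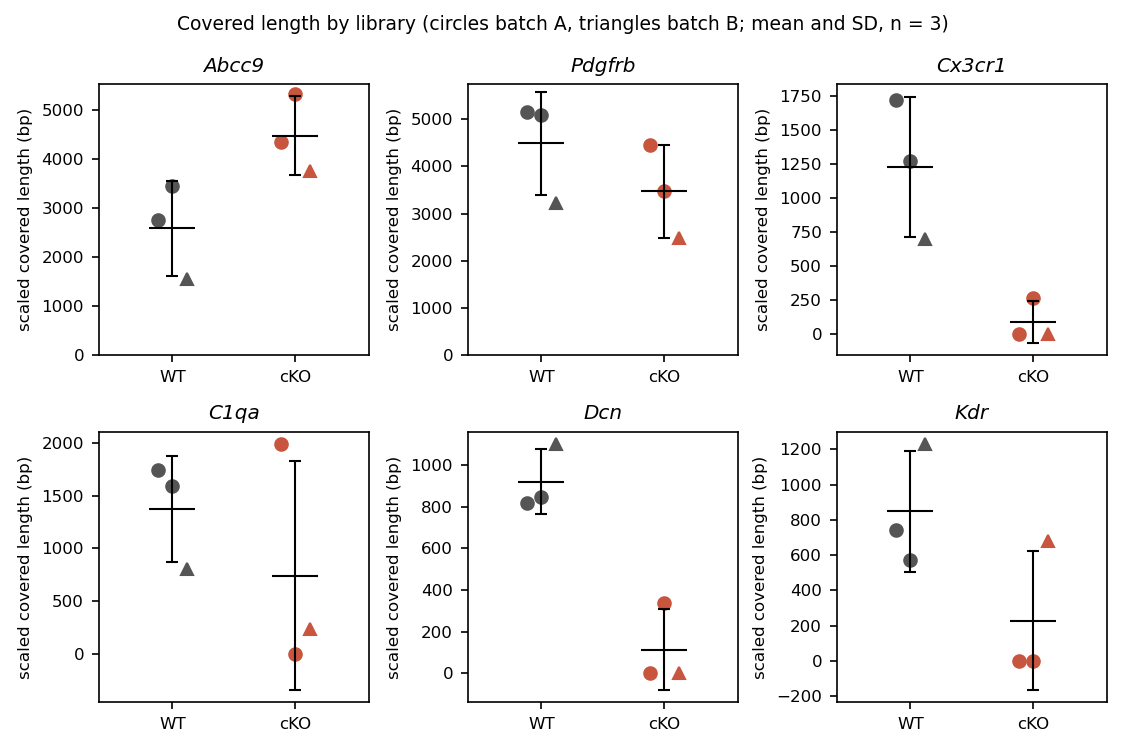
Points are the scaled covered length in bp of single libraries for members named in the comparison (circles for batch A, triangles for batch B), with the mean and SD (n = 3) of each genotype beside them; an SD bar that reaches below 0 comes from libraries without a peak. All cKO points of Abcc9 lie above the WT points, those of Cx3cr1 and Dcn lie below, and those of Pdgfrb overlap.

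Peaks of the 6 lists that overlapped or touched were merged into 116 regions in the member windows. Of these, 50 (43.1%) had a peak in all 6 libraries, against 46.4% of 85907 regions genome-wide, and 18 had one in a single library, as did 21.2% genome-wide. In all, 2 regions were present in all WT and no cKO libraries, where 0.907% of all regions were, and none in all cKO and no WT libraries, where 0.347% were. An exact test of 3 libraries against 3 cannot give a p below 0.1. Both WT regions lie in Dcn on chromosome 10. The first (97479498 to 97480100) is at the gene's end, with -log10 q of 2.19, 3.00 and 1.82. The second (97492325 to 97493196) is inside the gene, with -log10 q of 1.89, 2.63 and 5.93. Apart from the 5.93, these values lie between 1.82 and 3.00, where the lowest in the lists were 1.31 to 1.39. In lists of equal length neither region was in all WT and no cKO libraries, and the region inside Cx3cr1 was.

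Further genes of the same cells were counted in the same way. Peaks at the start (or either end) in all 6 libraries were listed for 6 of 20 other endothelial genes, 2 of 12 other mural, 4 of 20 other microglial and 7 of 20 other meningeal genes, by the same rule that gave 58% of all genes. The most covered windows of each list were those of Mfsd2a (13.04%), a lipid transporter of the blood-brain barrier, Ndufa4l2 (23.93%), Sall1 (37.51%) and Zic1 (33.56%). Sall1 and Zic1 encode transcription factors that neural cells also use. None of the 17, 8, 14 and 11 genes of these lists that entered the limma fit passed the adjusted threshold. At an unadjusted p below 0.05, 3 endothelial, 3 mural, 1 microglial and 2 meningeal genes were longer in cKO, where 4.71% of all genes tested were, and 0, 0, 1 and 2 were shorter, where 5.44% were. The median log2 difference was 0.09, 0.04, 0.06 and 0.02 in the same order, against 0.03 over all genes tested.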

How the data were processed

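Per the submitters' processing notes, reads were handled with FastQC, cutadapt, Bowtie2 2.2.8 and MACS2 2.1.1 on mm10; their roles and settings are not stated there. The deposited broadPeak lists give, per peak, a position, a fold enrichment, a -log10 p, a -log10 q and a score. The -log10 p served only to rank peaks for the lists of equal length, and the score was not used. Peaks were listed per library, and 6 input samples were not analysed here. Gene bodies came from the RefSeq table for GRCm38. Start sites came from the RefSeq promoter table for 22 members, otherwise from either gene end (13 members). Covered bp per window were scaled to equal totals over all gene windows, filtered at a mean of 1000 bp, taken as log2(bp + 500) and tested with limma 3.58.1 (R 4.3.3), batch as covariate. The script was tested on simulated data. Members and gene lists were chosen with earlier results of these data known. Fitted values are given for the 3 members of each class with the smallest unadjusted p, any past the threshold and any without overlap. Others are printed as class summaries. Alternatives covered peak strength, list length, scaling, pseudocount, filter, window, batch, replicate block and single libraries left out.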

Additional observations from a re-analysis of the deposited data

How the results depend on the processing

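The count of all genes past the adjusted threshold in limma, 43, moved with most choices: 13 without the batch covariate, 21 with peaks of -log10 q of at least 5, 12 and 108 with pseudocounts of 100 and 2000 bp, 6 without the length filter, 1 without scaling, 23 with quantile normalization, 0 with 2 kb around both gene ends, and 109 with scaling to the total of all peaks (chosen after seeing the data). Leaving out single libraries gave 2 to 66. Members past the threshold numbered 0, and 1 (Abcc9 each time) with a pseudocount of 2000 bp (adjusted p 0.0391), with scaling to the total of all peaks (0.0279), and with the replicate number as a block (0.043). Leaving out single libraries gave 0 to 1. Same-numbered WT and cKO libraries had deviations correlated at 0.131, 0.064 and 0.262, so the numbers are not shown to pair them, and the block raised the count over all genes to 64. Not every library correlated best with its own number.

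The members' median log2 difference, -0.00, was -0.07 with peaks of -log10 q of at least 5, -0.07 without scaling, -0.13 with 2 kb around both gene ends and 0.07 with gene bodies alone; leaving out single libraries gave -0.07 to -0.00. Detection at the start or either end in all libraries, 8 members, fell to 2 with peaks of -log10 q of at least 5 and to 3 when 500 bp had to be covered; without single libraries it was 8 to 12, the 12 without WT replicate 3. Window detection, 19 members, was 15 to 23 over the alternatives. The WT-only regions, 2, numbered 1 with peaks of -log10 q of at least 5 (in Pdgfrb), 1 in lists of equal length (in Cx3cr1), 1 when 50% of a region had to be covered (in Col1a1) and 9 in batch A alone, and 2 to 6 without single libraries (6 without WT replicate 3, 4 without cKO replicate 3). The cKO-only regions, 0, numbered 2 in batch A alone and 0 to 2 without single libraries.

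Small differences changed sign: Erg was 0.13 with peaks of -log10 q of at least 5, 0.07 in lists of equal length and 0.11 in gene bodies alone; Sox18 was -0.09 and -0.01 under the first 2 of these; Rgs5 was 0.05 without WT replicate 2 and 0.07 without cKO replicate 2; Foxc2 was 0.03 without cKO replicate 2; Col1a1 was 0.00 without WT or cKO replicate 3; and Lum was -0.08 without WT replicate 2. Leaving out single libraries put Rgs5 between -0.41 and 0.07, Col1a1 between -0.21 and 0.00 and Lum between -0.08 and 0.21. The causes were not tested. Members below the length filter under an alternative, such as C1qa in 7 of them, have no value there. Peak lists without read counts limit the precision: a peak near the caller's threshold can be listed in 1 library and missed in the next.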

Other observations

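Of the further genes of the same cell classes, 17 endothelial, 8 mural, 14 microglial and 11 meningeal genes entered the limma fit. None had an adjusted p below 0.05, where 0.28% of all genes tested did. Against shares of all genes tested of 4.71% longer and 5.44% shorter in cKO, 12 of these genes had an unadjusted p below 0.05. In the endothelial list they included Vwf, with a log2 difference (cKO minus WT) of 0.50 and an adjusted p of 0.109, Esam (0.57, adjusted p 0.275) and Tal1 (0.44, adjusted p 0.31). The mural genes were Cspg4 (0.46), Tagln (0.41) and Higd1b (0.33). The microglial gene Fcer1g was at 0.30. The meningeal genes had differences of both signs, with Lama1 at 0.52, Col5a1 at 0.30, Pdgfra at -0.29 and Bmp5 at -0.67. These genes were chosen after their values were seen. Their differences are over whole windows, and covered bases near other genes were not set apart for these lists. In the lists of erythroid and choroid plexus genes, 2 of 8 in each had a peak at the start or either end in all 6 libraries, and none of the 5 and 4 genes that entered the limma fit passed the adjusted threshold or an unadjusted p of 0.05.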
